A study of Mus musculus with 10 samples.

Results

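The expression of 10 antiviral genes of the interferon response was followed: Ifi27, Ifi27l2a, Ifi27l2b, Ifi44, Ifi35, Rsad2, Bst2, Mx2, Xaf1 and Rtp4. They were taken by name from a table of 55487 genes, and each name matched 1 row. Intestinal epithelial cells (IECs) released with EDTA from the colon were profiled by RNA sequencing in 5 WT and 5 RhoB-/- libraries. All mice were on the C57BL/6J background, were 6 to 8 weeks old unless stated otherwise, and received no treatment that the labels give. RhoB-/- mice carry a homozygous deletion of Rhob, a small GTPase, in the whole body, so it is absent from immune and stromal cells as well as from the epithelium. The study's methods give different centres as the sources of WT and knockout mice, and the labels give no source. Its text speaks of WT littermates only for RhoB+/- mice in a chronic colitis experiment. If the sources differed, colony and genotype cannot be told apart in these groups. The labels number the replicates of each genotype but name no animals, so errors and p-values measure the spread between libraries.

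The 10 genes belong to the group that cells switch on after interferon binds its receptor. Type I and type III interferons act through JAK kinases on a complex that holds STAT2 and IRF9 and binds a short element in the promoters of such genes, the interferon-stimulated response element (ISRE). In the intestine, epithelial cells are known for a strong response to type III interferon. Several of the proteins encoded are known to act against viruses, at different steps. Ifi27, Ifi27l2a and Ifi27l2b encode small hydrophobic proteins of the ISG12 family. Rsad2 encodes viperin, a radical SAM enzyme that makes a nucleotide blocking viral RNA synthesis, and Mx2 encodes a dynamin-like GTPase. Bst2 encodes tetherin, which holds budding virions at the cell surface. Ifi35 encodes a leucine zipper protein that binds Nmi, Xaf1 a partner of the apoptosis inhibitor XIAP, Rtp4 a receptor chaperone that binds viral RNA, and Ifi44 a cytoplasmic protein.

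Of the 10 genes, 5 had a promoter entry in RefSeq on GRCm38.p6, the build that the submitters name, and the sequences are shown because the ISRE is the element these genes are known to share. Windows of 300 bases, from 250 before to 50 after the annotated start, were searched on both strands for 2 spacings of the repeated GAAA, GAAANNGAAA and GAAANGAAA. The spacings were chosen after these sequences were read, so the count of matches among them was fixed by that choice and shows no enrichment. GAAANNGAAA was found in 2 of the 5 windows, Bst2 and Rsad2, and GAAANGAAA in the other 3. Of all 32851 windows of that length, 3.44% held GAAANNGAAA, 3.17% GAAANGAAA and 6.27% either. Capitals mark the matches, which on the minus side of a window read TTTC. For Bst2 (chr8:71537473-71537722), Rsad2 (chr12:26456453-26456702) and Ifi44 (chr3:151749911-151750160), all on the minus strand, the 250 bases before the start are given 5′ to 3′:
Bst2: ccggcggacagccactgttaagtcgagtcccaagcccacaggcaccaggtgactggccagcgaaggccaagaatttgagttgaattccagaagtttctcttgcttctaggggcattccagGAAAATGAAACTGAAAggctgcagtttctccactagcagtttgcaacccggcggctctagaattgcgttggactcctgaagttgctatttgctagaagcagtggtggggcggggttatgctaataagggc
Rsad2: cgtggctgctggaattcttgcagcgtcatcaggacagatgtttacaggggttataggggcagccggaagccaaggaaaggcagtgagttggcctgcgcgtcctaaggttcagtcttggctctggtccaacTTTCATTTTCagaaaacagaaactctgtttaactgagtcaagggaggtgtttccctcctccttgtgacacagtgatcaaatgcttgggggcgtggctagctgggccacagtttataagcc
Ifi44: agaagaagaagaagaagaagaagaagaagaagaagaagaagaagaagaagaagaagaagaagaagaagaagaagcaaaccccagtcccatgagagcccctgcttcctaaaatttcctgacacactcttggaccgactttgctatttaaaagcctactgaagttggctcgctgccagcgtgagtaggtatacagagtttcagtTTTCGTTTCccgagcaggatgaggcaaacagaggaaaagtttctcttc

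Bst2 held 2 overlapping matches that began 130 and 124 bases before the start. The match of Rsad2 began 120 bases and that of Ifi44 48 bases before the start. In GENCODE the gene of Ifi44 reaches base 151749960, inside the window shown, so by that annotation its match lies within the gene. For Ifi35 (chr11:101448416-101448445) and Xaf1 (chr11:72301630-72301659), on the plus strand, the match lay after the annotated start, beginning at base 14 and base 11, and 30 bases around it are given:
Ifi35: gaattcacaGAAATGAAAgtggaagtgagg
Xaf1: gtgtgcaaaGAAACGAAActccacagaagc

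A match is a string of letters and not a binding site. Ifi27, Ifi27l2a, Ifi27l2b, Mx2 and Rtp4 had no entry.

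The deposited unit is TPM, in which reads are divided by transcript length and each library is scaled to a fixed total, so that levels of different genes can be compared within a library. TPM keeps no depth, so the number of reads behind a value is unknown. Totals were 971419 to 993229 TPM, and 20261 to 21344 genes were above 0 in a library. The mitochondrial share was 17.5% to 26.5% in WT and 10.3% to 22.4% in RhoB-/- libraries. Rhob had 170.5 to 388.7 TPM in WT libraries and 0.09, 0.10, 0.35 and 0.57 TPM in RhoB-/- replicates 1 to 4. The library labelled RhoB-/- replicate 5 had 110.9 TPM of Rhob, which goes against its label in part. It was kept in its group, and results are also given without it. The Y-linked genes Ddx3y, Kdm5d, Uty and Eif2s3y were expressed in all 10 libraries (5.33 to 49.0 TPM), and Xist was at most 0.08 TPM.

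The 10 genes were chosen with the difference between the genotypes known, so that difference is described here without a test. Each of them was higher in RhoB-/- than in WT libraries. Differences are given as the ratio of mean TPM and as the difference of mean log2(TPM + 1) with its standard error from limma, a linear model fitted to the 12870 genes whose mean over all libraries reached 1 TPM. Adding 1 makes the log2 difference of scarce transcripts smaller: with 0.1 in its place, Ifi44 went from 4.38 to 6.03, Mx2 from 3.15 to 4.46, Ifi27l2a from 6.47 to 7.19, Rsad2 from 2.71 to 3.21 and Xaf1 from 3.61 to 3.88. Across the 10 genes the median log2 difference was 3.04, from 0.97 to 6.47, and that of all tested genes was -0.13. Values did not overlap between the genotypes for any of the 10 genes, and the same held, with RhoB-/- higher, for 5.97% of the tested genes. Ifi44 and Mx2, with means of 0.32 and 0.50 TPM in WT, passed the filter only through RhoB-/- values. That share is therefore not a like comparison for them. Of the tested genes, 12.7% were called at an adjusted p below 0.05 and a fold change above 1.5, namely 5.58% higher and 7.13% lower in RhoB-/- libraries. This balance depended on the scaling and on the libraries included. As fitted, 718 genes were higher and 918 lower. The counts were 949 and 469 after recentring on the median, and 845 and 581 after quantile normalization. Without RhoB-/- replicate 2 they were 791 and 724. All 10 genes were higher under each of these.

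**Figure D1:**
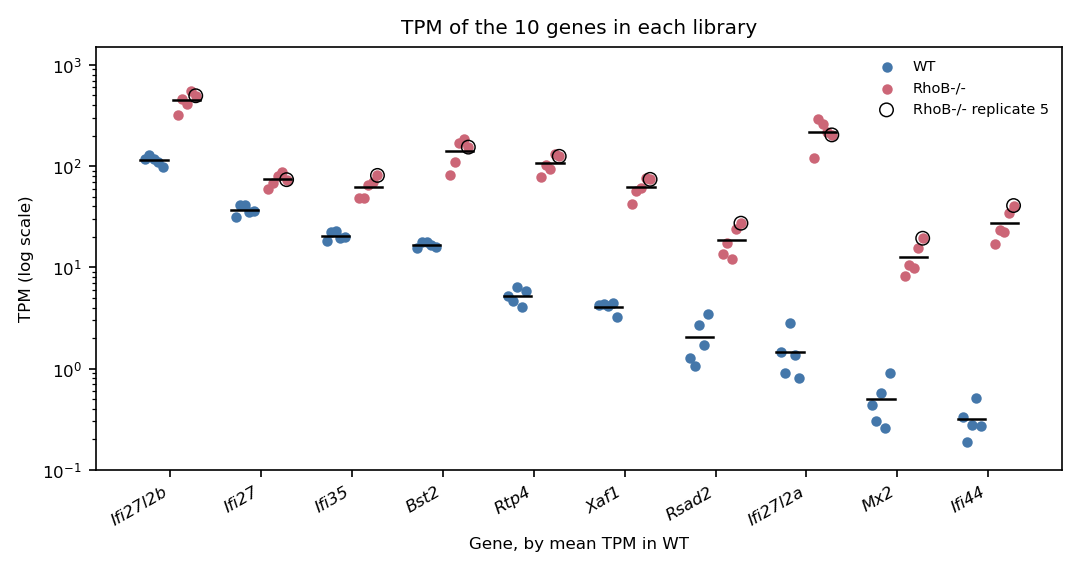
TPM (log axis) of the 10 genes in each of the 5 WT and 5 RhoB-/- libraries, ordered by mean TPM in WT; points are libraries in replicate order and lines are means. RhoB-/- points lie above WT points for every gene, and Ifi27l2a moves from among the lowest genes in WT (0.81 to 2.80) to among the highest in RhoB-/- libraries (121.0 to 289.8).

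The 3 ISG12 genes lie within 1 stretch of chromosome 12 (Ifi27 at 103434211 to 103440239, Ifi27l2a at 103442167 to 103443680, Ifi27l2b at 103450898 to 103457223, GENCODE M21 on GRCm38), yet differed most widely among the 10 genes. Ifi27l2a (ENSMUSG00000079017) had 1.46, 0.90, 2.80, 1.37 and 0.81 TPM in WT replicates 1 to 5 and 121.0, 289.8, 263.1, 214.7 and 203.2 TPM in RhoB-/- replicates 1 to 5. The lowest RhoB-/- library was far above the highest WT library, and the mean TPM was 148.8 times higher (log2 difference 6.47, standard error 0.25). No other tested gene had a higher log2 difference. Ifi27l2b (ENSMUSG00000021208) was already the most abundant of the 10 genes in WT, at 117.2, 129.9, 118.5, 110.9 and 97.5 TPM, and had 322.6, 454.6, 414.2, 554.3 and 494.9 TPM in RhoB-/- replicates 1 to 5. This was a ratio of 3.904 (log2 difference 1.94, standard error 0.15). Ifi27 (ENSMUSG00000064215) had 31.4, 41.0, 41.2, 35.0 and 36.2 TPM in WT and 59.8, 68.0, 79.6, 88.1 and 73.4 TPM in RhoB-/- replicates 1 to 5. Its ratio of 1.996 (log2 difference 0.97, standard error 0.12) was the smallest of the 10 genes, though the groups did not overlap. Of the 31-base words in the GENCODE transcripts, Ifi27 shared 0 with either relative, and Ifi27l2a and Ifi27l2b shared 26, which is 6.00% of the words of Ifi27l2a and 2.80% of those of Ifi27l2b. Reads from the shared stretch can be split between these genes.

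Among the genes that encode enzymes and GTPases, Rsad2 (ENSMUSG00000020641, chromosome 12, 26442746 to 26456452, minus strand) had 1.28, 1.07, 2.69, 1.69 and 3.44 TPM in WT and 13.6, 17.4, 12.2, 23.7 and 27.3 TPM in RhoB-/- replicates 1 to 5. Its log2 difference of 2.71 had the largest standard error of the 10 genes, 0.26, with WT values that spread 3.21-fold from lowest to highest. Mx2 (ENSMUSG00000023341, chromosome 16, 97535308 to 97560900) had 0.44, 0.30, 0.57, 0.26 and 0.91 TPM in WT and 8.24, 10.5, 9.94, 15.5 and 19.4 TPM in RhoB-/- replicates 1 to 5. All WT values were below 1 TPM, and the mean was 25.6 times higher in RhoB-/- libraries (log2 difference 3.15, standard error 0.22). GENCODE lists Mx2 as a polymorphic pseudogene on this strain, and C57BL/6J is known to carry inactive Mx alleles, and no protein was measured here. Mx2 shared 289 of its 31-base words with Mx1, 7.96% of the words of Mx2.

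Bst2, Ifi35 and Ifi44 followed different patterns from their WT levels. Bst2 (ENSMUSG00000046718, chromosome 8, 71534255 to 71537456, minus strand) was even among WT libraries, at 15.6, 17.8, 17.7, 16.6 and 16.01 TPM, a coefficient of variation of 5.87%. In RhoB-/- replicates 1 to 5 it had 81.8, 109.9, 169.4, 184.7 and 153.8 TPM, a coefficient of variation of 30.6% (log2 difference 2.93, standard error 0.19). Its libraries were therefore spread more widely in the RhoB-/- group while staying above all WT values. Ifi35 (ENSMUSG00000010358, chromosome 11, 101448407 to 101458698) had 18.2 to 22.7 TPM in WT and 48.2, 48.8, 65.2, 70.1 and 80.9 TPM in RhoB-/- replicates 1 to 5, a ratio of 3.05 (log2 difference 1.54, standard error 0.15). Ifi44 (ENSMUSG00000028037, chromosome 3, 151730922 to 151749960, minus strand) was the lowest of the 10 genes in WT, at 0.33, 0.19, 0.28, 0.51 and 0.27 TPM. With 17.1, 23.2, 22.5, 34.1 and 40.7 TPM in RhoB-/- replicates 1 to 5, it had the second-highest log2 difference of the 10 genes, 4.38 (standard error 0.20), and a ratio of 87.1 against a WT mean near 0.

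Xaf1 and Rtp4 had low levels in WT libraries, with coefficients of variation of 11.7% and 18.4%. Xaf1 (ENSMUSG00000040483, chromosome 11, 72301629 to 72313733) had 4.21, 4.31, 4.12, 4.45 and 3.24 TPM in WT, where replicate 5 lay apart from the other 4, and 42.3, 57.2, 60.5, 76.0 and 73.9 TPM in RhoB-/- replicates 1 to 5 (log2 difference 3.61, standard error 0.15). Rtp4 (ENSMUSG00000033355, chromosome 16, 23520291 to 23614222) had 5.21, 4.64, 6.45, 4.01 and 5.86 TPM in WT and 77.6, 103.4, 93.8, 130.5 and 124.8 TPM in RhoB-/- replicates 1 to 5 (log2 difference 4.09, standard error 0.16). The ratios of mean TPM were 15.2 for Xaf1 and 20.3 for Rtp4.

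**Figure D2:**
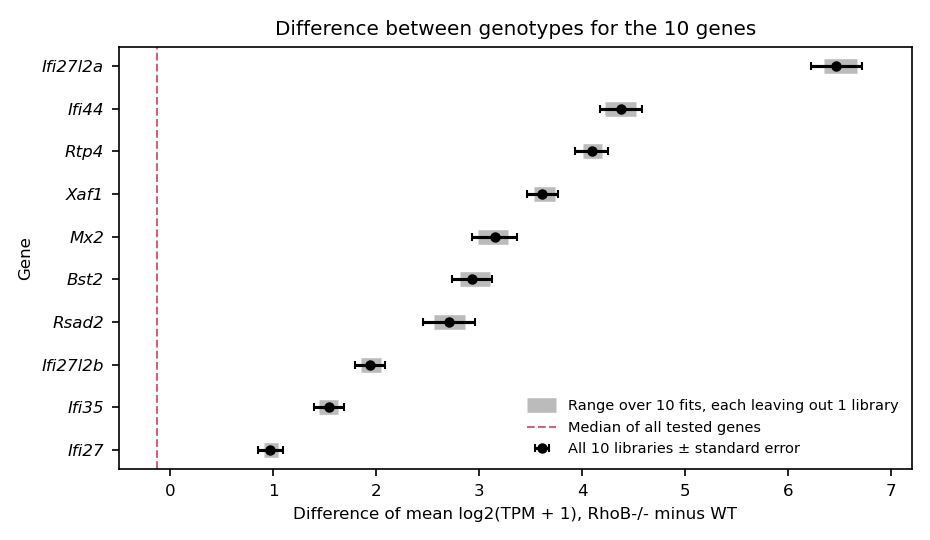
Difference of mean log2(TPM + 1), RhoB-/- minus WT, for the 10 genes; points with bars are all 10 libraries ± standard error, grey bands the range over the 10 fits that each left out 1 library, and the dashed line the median of all tested genes (-0.13). The values run from 0.97 for Ifi27 to 6.47 for Ifi27l2a.

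The order of levels changed between the genotypes. In WT libraries it was Ifi27l2b, Ifi27, Ifi35, Bst2, Rtp4, Xaf1, Rsad2, Ifi27l2a, Mx2 and Ifi44 by mean TPM. The first 4 of these differed from their next neighbour with no overlap of libraries, and the later neighbours overlapped. In RhoB-/- libraries the order was Ifi27l2b, Ifi27l2a, Bst2, Rtp4, Ifi27, Ifi35, Xaf1, Ifi44, Rsad2 and Mx2. Here Ifi27l2b and Ifi27l2a did not overlap, nor did Xaf1 and Ifi44, and all other neighbours overlapped. Ifi27l2a went from rank 8 to rank 2. Together the 10 genes took 184.2 to 222.55 TPM in WT and 792.5 to 1392 TPM in RhoB-/- libraries. Ifi27l2a made up 0.404% to 1.29% of this sum in WT and 15.3% to 24.5% in RhoB-/- libraries.

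The 10 genes also varied among the RhoB-/- libraries. RhoB-/- replicate 1 was the lowest of its group for 9 of the 10 genes and had their lowest sum, 792.5 TPM, and the exception was Rsad2, lowest in replicate 3. The highest value lay in replicate 4 for 5 genes (Ifi27, Ifi27l2b, Bst2, Xaf1 and Rtp4), in replicate 5 for 4 genes (Ifi44, Ifi35, Rsad2 and Mx2) and in replicate 2 for Ifi27l2a. In WT, no library was lowest for more than 3 genes or highest for more than 4. The library labelled RhoB-/- replicate 5, the one with Rhob at 110.9 TPM, thus did not stand nearer to WT than its group for these genes. Without it the median log2 difference of the 10 genes was 2.94, from 0.97 for Ifi27 to 6.48 for Ifi27l2a.

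**Figure D3:**
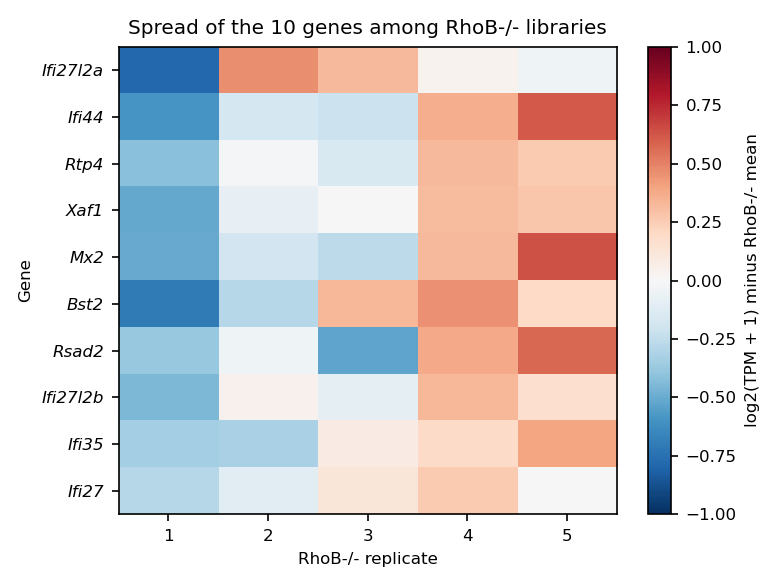
Deviation of log2(TPM + 1) from the RhoB-/- mean for the 10 genes in RhoB-/- replicates 1 to 5; blue is below and red above the mean of the 5 libraries. Replicate 1 is blue for every gene, while Rsad2 is lowest in replicate 3 and Ifi27l2a highest in replicate 2.

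The rest of the interferon pathway was described with 6 lists grouped by role, of which 56 genes passed the TPM filter. Of these 56 genes, 34 rose and 0 fell in RhoB-/- libraries (adjusted p below 0.05 over all tested genes and a fold change above 1.5, limma), beside 5.58% and 7.13% of all tested genes. The lists were drawn up with earlier results of these data known, so this count is a description and no independent result. Of the 21 ligand genes, among them all Ifna genes in the table, Ifnb1 and Ifnl3, 18 were listed at 0 in every library, and none passed the filter. Ifng, the type II interferon of lymphocytes, had 0.17 to 1.17 TPM in WT and 0.19 to 1.13 TPM in RhoB-/- libraries (exact permutation test, two-sided p = 0.571). The type III interferon Ifnl2 had at most 0.25 TPM in WT and 0.14 TPM in RhoB-/- libraries (exact permutation test, p = 0.841). Ifnk was listed at 0 in all WT libraries and in RhoB-/- replicate 3, and had 0.10 to 0.44 TPM in the others (exact permutation test, p = 0.0476, 0.238 after Benjamini-Hochberg adjustment over the 5 genes tested this way). Values this low cannot show whether a ligand is made, because the depth is unknown.

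Of the 9 receptors and kinases, 1 rose. Ifnlr1, the specific subunit of the type III interferon receptor, rose from 3.55 ± 0.64 to 6.47 ± 1.68 TPM (SD, n = 5 each), a log2 difference of 0.70 (standard error 0.16, adjusted p = 0.0118, limma). The type I receptor subunits Ifnar1 and Ifnar2 had log2 differences of 0.22 and -0.01 (adjusted p = 0.139 and 0.962, limma), and the kinase Tyk2 had the lowest value of the list, -0.04. Ifngr1, Ifngr2 and Jak2 had an adjusted p below 0.05 but a fold change under 1.5. The list's median log2 difference was 0.37.

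Of the 7 transcription factors, 5 rose. Irf7, which amplifies interferon gene expression, had 37.0, 47.4, 83.95, 39.95 and 63.15 TPM in WT and 306.7, 430.0, 393.5, 564.3 and 530.5 TPM in RhoB-/- replicates 1 to 5, a log2 difference of 3.05 (standard error 0.23, adjusted p = 3.89e-06, limma). Stat2 and Irf9, parts of the complex that binds the ISRE, rose as well, with log2 differences of 2.03 and 1.55 (adjusted p = 6.53e-06 and 1.97e-06, limma). Stat2, Irf9 and Irf7 did not overlap between the genotypes. Irf1 had a log2 difference of 0.66 (adjusted p = 0.0221, limma), and its call was lost without the library labelled RhoB-/- replicate 5 (adjusted p = 0.0572). Irf3 and Irf8 had log2 differences of 0.01 and 0.05.

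Of the 7 feedback genes, 2 rose. Usp18, which removes ISG15 and restrains the type I receptor, had 0.91 to 2.03 TPM in WT (median 1.11) and 32.3, 34.2, 42.6, 49.0 and 64.6 TPM in RhoB-/- replicates 1 to 5. Its log2 difference of 4.25 (standard error 0.20, adjusted p = 1.14e-07, limma) lay close to those of Ifi44 and Rtp4. Socs1, an inhibitor of JAK kinases, had a log2 difference of 0.89 (adjusted p = 0.00879, limma). Socs3 had 56.5 TPM in RhoB-/- replicate 1 and 7.69 to 19.9 TPM in the other 4 (adjusted p = 0.152, limma). The phosphatases Ptpn2, Ptpn6 and Ptpn11 and Pias1 had log2 differences from -0.18 to 0.13.

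Of the 10 relatives and partners of the 10 genes, 6 passed the filter and 5 rose. Cmpk2, a nucleotide kinase whose gene starts 12752 bases from Rsad2, rose from 2.84 ± 0.53 to 18.3 ± 3.87 TPM (SD, n = 5 each), a log2 difference of 2.32 (adjusted p = 1.31e-06, limma) beside 2.71 for Rsad2. Mx1, a relative of Mx2 on the same chromosome, had 7.05 ± 0.37 and 16.4 ± 2.75 TPM (SD, n = 5 each), a log2 difference of 1.09 (adjusted p = 9.17e-05, limma) beside 3.15 for Mx2. Nmi, the partner of Ifi35, had a log2 difference of 1.10 (adjusted p = 8.41e-04), Xiap, the partner of Xaf1, 0.62 (adjusted p = 0.0105) and the factor Batf2 1.35 (adjusted p = 1.68e-04, limma). The call of Xiap was lost without the library labelled RhoB-/- replicate 5, where its log2 difference of 0.51 was under the fold threshold. Fdps, an isoprenoid enzyme that viperin binds, had -0.08. Ifi44l, Rtp1 and Rtp2 were listed at 0 in every library, and Rtp3, below the filter, did not pass its test (exact permutation test, p = 0.722).

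Of the 28 other antiviral effectors, 27 passed the filter and 21 rose. Ddx60, a helicase of RNA sensing, had the largest log2 difference, 3.81 (standard error 0.21, adjusted p = 4.33e-07, limma), from 1.63 ± 0.51 to 36.9 ± 13.4 TPM (SD, n = 5 each). Large differences were also found for Ifi47 (3.66), an immunity-related GTPase, Phf11d (2.89), Sp100 (2.60), Parp14 (2.56), Lgals9 (2.26), Ifitm3 (2.13) and Lgals3bp (2.10). Smaller differences were found for Helz2, Mov10, Znfx1, Adar, Zc3hav1, Ifitm1, Samhd1, Eif2ak2, Tor3a, Tdrd7, Shfl and Pml, with log2 differences from 0.67 to 1.67. The call of Ifitm1 was lost without the library labelled RhoB-/- replicate 5 (adjusted p = 0.0756, limma), as was that of Pml, whose log2 difference was then 0.57. Ifitm1, with a mean of 0.36 TPM in WT and 2.30 TPM in RhoB-/- libraries, passed the filter only through its RhoB-/- values. Ch25h was below the filter (exact permutation test, p = 1). Isg20 had the lowest log2 difference, -0.50 (adjusted p = 0.0589, limma), and Ifitm2 had -0.38 (adjusted p = 0.214), while Apobec3, Cnp and Ifi30 had 0.14, 0.15 and -0.18. Plscr1 had 0.52, under the fold threshold. The median over this list was 1.202, and 1.01 without the library labelled RhoB-/- replicate 5.

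**Figure D4:**
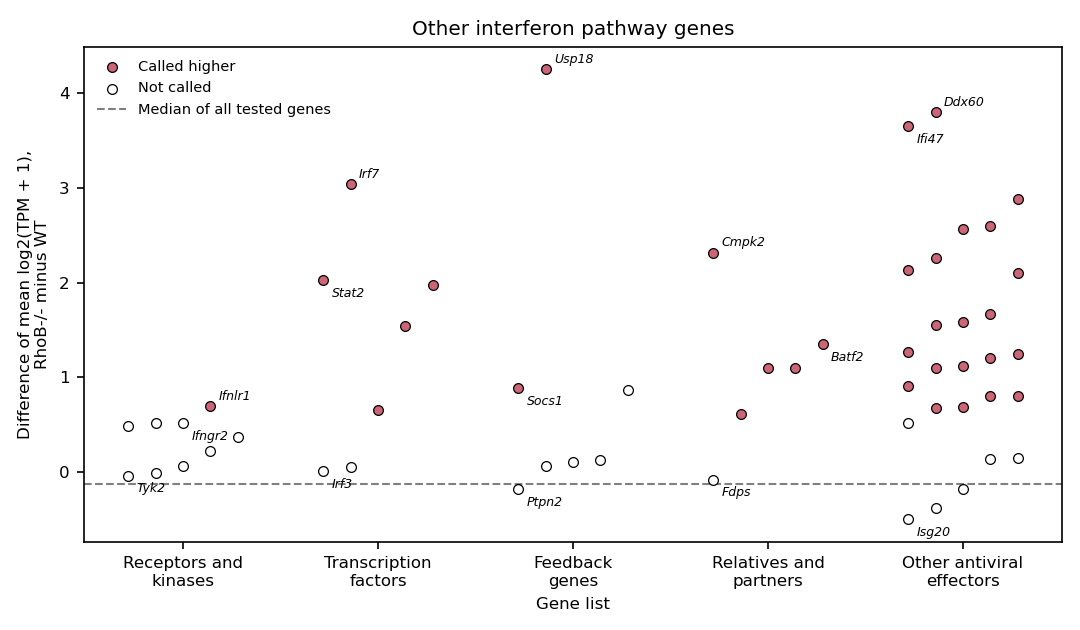
Difference of mean log2(TPM + 1), RhoB-/- minus WT, for the 56 other interferon pathway genes above the TPM filter, by role; filled points were called higher (34 genes), open points were not called, and the dashed line is the median of all tested genes. The largest and smallest values of each list are named.

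The colon samples were checked for the cells they hold, because interferon-stimulated genes are also expressed by leukocytes and Bst2 is known to mark plasmacytoid dendritic cells. In bulk samples, fewer cells of a type and less RNA per cell cannot be told apart. The 8 epithelial markers summed to 10231 to 11699 TPM in WT and 10283 to 16461 TPM in RhoB-/- libraries, with Epcam at 968.8 TPM or more everywhere, and Krt20 and Vil1 were the 2 that rose (Vil1 not without the library labelled RhoB-/- replicate 5, limma). Markers of other cells moved with the genotype as well. Of 45 such markers, 40 had a higher mean TPM in RhoB-/- libraries. Of the 18 above the filter 13 rose and 1 fell (limma), beside 5.58% and 7.13% of all tested genes. The filter used the mean over all libraries, so some markers passed it only through RhoB-/- values. Examples are Ly6d (mean 0.28 TPM in WT and 2.81 in RhoB-/- libraries) and Cd8a (0.83 and 2.94). This favours markers that rise, so the count of 13 among 18 cannot be compared directly with those shares. The 4 leukocyte markers, Ptprc among them, summed to 6.09 to 13.3 TPM in WT and 17.6 to 36.2 TPM in RhoB-/- libraries. The 8 markers of T cells and intraepithelial lymphocytes summed to 8.43 to 20.03 and 49.7 to 58.7 TPM, the 7 of B and plasma cells to 1.02 to 4.19 and 4.71 to 20.5 TPM, and the 8 of myeloid cells to 1.93 to 3.32 and 4.26 to 19.6 TPM. The 5 fibroblast markers summed to 2.98 to 3.99 and 5.53 to 35.0 TPM, the 4 of endothelium to 0.78 to 1.22 and 0.66 to 1.44 TPM, and the 4 of smooth muscle to 1.05 to 2.28 and 1.52 to 1.97 TPM. Mzb1, S100a8 and S100a9 were listed at 0 in all WT libraries.

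Of the 5 markers listed for plasmacytoid dendritic cells, Klk1, a kallikrein that the colon epithelium also expresses, had 575.5 to 1890 TPM and fell, Ly6d rose, and Siglech, the defining marker, was at most 0.19 TPM in WT and 0.18 TPM in RhoB-/- libraries. Without Klk1, no marker of another cell type exceeded 27.3 TPM in any library. Ifi27l2a, Ifi27l2b, Bst2 and Rtp4 were each at 77.6 TPM or more in every RhoB-/- library. Ifi27, Ifi35 and Xaf1 were each at 42.3 TPM or more there. Mx2 had 8.24 to 19.4 TPM, Rsad2 12.2 to 27.3 TPM and Ifi44 17.1 to 40.7 TPM in RhoB-/- libraries. These ranges overlap that of Gzma (21.9 to 27.3 TPM), of Gzmb (9.50 to 15.6 TPM) or of both. The sum of leukocyte markers was 36.2, 17.6, 27.3, 21.6 and 36.04 TPM in RhoB-/- replicates 1 to 5, and that of the 10 genes was 792.5, 1183, 1190.44, 1392 and 1292 TPM. The relation between these 2 sums was not tested, and replicate 5 is the library with Rhob at 110.9 TPM. All RhoB-/- leukocyte sums lay above all WT sums. Marker levels do not show how much of the values of the 10 genes came from such cells, and this part was not tested.

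Position was examined because the choice of the 10 genes did not use it. The 3 nearest tested genes on each side of each of them gave 48 different neighbours, at 47 to 5209493 bases. Of these, 4 rose and 5 fell, 18.75% in all beside 12.7% of all tested genes (limma). The 4 included Cmpk2, 12752 bases from Rsad2. Fam3b (log2 difference 0.90, adjusted p = 0.00177) and 2210009P08Rik (0.96, adjusted p = 0.0245, limma) lay 20492 and 68360 bases from Mx2. The noncoding Gm28875 (0.70, adjusted p = 0.0144, limma) lay 1468278 to 1485262 bases from the ISG12 genes. Those that fell included Dnajb4 (-1.18) and Prkacb (-0.73), 428551 and 4917932 bases from Ifi44, and Slc27a1 (-0.73), 31426 bases from Bst2. The others were St6gal1 (-1.03) and Sst (-0.74), 159941 and 275351 bases from Rtp4 on either side. The call of 2210009P08Rik, and those of Prkacb and Sst, were lost without the library labelled RhoB-/- replicate 5. The immediate neighbours of Ifi35, Rpl27 and Vat1, had log2 differences of -0.30 and -0.06, and those of Bst2, Gtpbp3 and Mvb12a, had -0.13 each, and none of these 4 was called. Ddx24, next to the ISG12 genes, had 0.35. Rhob itself lies on chromosome 12, 17.9 Mb from Rsad2 and 94.9 Mb from the ISG12 genes.

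**Figure D5:**
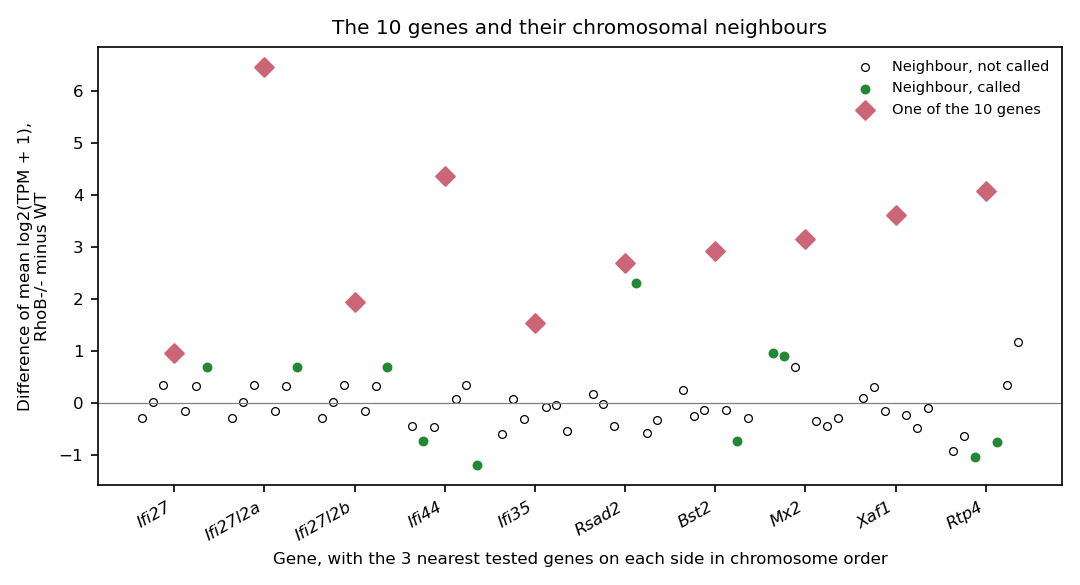
Difference of mean log2(TPM + 1), RhoB-/- minus WT, for each of the 10 genes (diamonds) and its 3 nearest tested neighbours on each side in chromosome order (circles; filled where called). Among the neighbours, Cmpk2 beside Rsad2 has the largest difference (2.32); the ISG12 genes share their neighbours.

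The tested genes whose deviation from the WT mean was closest to the median deviation of the 10 genes, library by library, were Phf11d, Gbp3, Ifit3b, Trim30a and Oasl1. Their mean absolute distance from that median over the 10 libraries was 0.17, 0.18, 0.22, 0.22 and 0.24 on the log2(TPM + 1) scale. Phf11d had 4.54 to 6.96 TPM in WT and 35.95, 38.8, 42.04, 57.5 and 62.1 TPM in RhoB-/- replicates 1 to 5. It is also counted among the other antiviral effectors. Gbp3 and Ifit3b, with means of 0.54 and 0.51 TPM in WT, passed the filter only through RhoB-/- values. All of these genes were picked for this likeness, so their values are no independent result.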

How the data were processed

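RNA of IECs from 5 WT and 5 RhoB-/- libraries was analysed, with groups and replicate numbers from the sample titles. The authors trimmed the reads with SeqPrep and Sickle and, per the labels, used HISAT2 (alignment with a strand setting), StringTie (reference-based assembly) and RSEM (gene abundance) on GRCm38.p6. edgeR is also named by the submitters, with no role given here. Versions and annotation release are not given in the sources used here. The deposited values are TPM, rounded to 2 decimals, used as given. TPM sums to a fixed total, so a gene that takes much of a library lowers the others.

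The 12870 of 55487 genes whose mean reached 1 TPM, all 10 followed genes included, were fitted with limma 3.58.1 in R 4.3.3 (lmFit, eBayes with trend) on log2(TPM + 1), with Benjamini-Hochberg adjustment over all of them. A call needed an adjusted p below 0.05 together with a fold change above 1.5. Pathway genes with lower means, if above 0 somewhere, had an exact two-sided permutation test over the 252 relabellings, whose smallest p is 0.00794. The fit was tested on simulated data. Positions are from GENCODE M21 and promoters from RefSeq, both on GRCm38. The followed genes, lists and tests were chosen with earlier results of these data known. Genes named from the lists were those called, the highest and lowest log2 difference of each list and those with a defining role in interferon signalling, neighbours were named where called, and the 5 genes nearest in pattern were named by their distance. Some genes counted in the lists are not reported here by name. Other genes named for a value were chosen after the values were seen. Replicate numbers 1 to 5 are shared by the genotypes, but mark no shared animal: the correlation of same-numbered deviations was -0.09 to 0.07. Alternatives were a pseudocount of 0.1, no filter, a mean TPM of at least 5, quantile normalization, recentring, no trend, a replicate block, other call rules and each library left out.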

Additional observations from a re-analysis of the deposited data

Results flagged for a closer look

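Among 104 groups of 5 values (52 genes in each genotype), 6 values lay far from the other 4 of their group, where chance flags about 1 in 20 groups. More genes are named in the text than the 52 examined. Socs3, at 56.5 TPM in RhoB-/- replicate 1 against 7.69 to 19.9 TPM in the other 4, was not among those examined. Of the 20 groups of the followed genes 1 was flagged, Xaf1 in WT replicate 5 at 3.24 TPM, below 4.12 to 4.45 TPM in the other WT libraries. Rhob reached 110.87 TPM in RhoB-/- replicate 5, against 0.09 to 0.57 TPM in the rest of its group. The others were Eif2ak2 at 17.96 TPM and Sp100 at 7.33 TPM in WT replicate 2, Samhd1 at 22.12 TPM in WT replicate 1, and Zc3hav1, which had 61.11 TPM in RhoB-/- replicate 5.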

How the results depend on the processing

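No followed gene changed direction under any alternative. Of 170 values, 165 moved by less than the spread between replicates, and the other 5 (Ifi44 to 6.03, Mx2 to 4.46, Ifi27l2a to 7.19, Rsad2 to 3.21 and Xaf1 to 3.88) moved with a pseudocount of 0.1, which raised the median log2 difference from 3.04 to 3.54 (2.94 to 3.19 over the fits that each left out 1 library). Over all tested genes, 718 were higher and 918 lower. Leaving out each library gave 574 to 791 higher and 614 to 1347 lower. A fold change above 2 gave 368 and 204, and the higher and lower genes were 565 and 548 with a mean TPM of at least 5, 845 and 581 with quantile normalization, and 949 and 469 after recentring on the median of -0.13, so the excess of lower genes turned round under these 3. Recentring shifts every log2 difference up by 0.13. Of the pathway genes, 30 to 35 were higher and 0 to 1 lower when each library was left out (30 without RhoB-/- replicate 5, where Irf1, Xiap, Ifitm1 and Pml lost their calls, and 1 lower without RhoB-/- replicate 4 or WT replicate 1). The lower neighbours were 3 to 8 when each library was left out (3 without RhoB-/- replicate 4 or 5 or WT replicate 2 or 4, 8 without RhoB-/- replicate 3), 3 without the filter or after recentring, and 2 at a fold change above 2, where 1 neighbour was higher. The higher neighbours were 3 to 4 when each library was left out. Of the cell type markers, 15 were higher and 1 lower, 14 to 17 and 1 when each library was left out, 6 higher with a mean TPM of at least 5, and 0 lower at a fold change above 2. With a replicate block, the median of the followed genes was 3.04. The replicate numbers share only a number, and the block gave 715 higher and 812 lower genes. The cause of these changes was not tested. The depth behind each TPM value is unknown, which limits genes near 0, such as Ifi44 and Mx2 in WT.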
